A study of Mus musculus with 8 samples.

Results

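The platelet-derived growth factor (PDGF) family was followed across mouse livers with chemically induced fibrosis. It comprised the 4 ligand genes Pdgfa, Pdgfb, Pdgfc and Pdgfd and the 2 receptor genes Pdgfra and Pdgfrb. The members were taken by the gene name that the array files give to each probe, which found 6 of 34768 genes on the array and 8 probes. The samples were livers of male mice given an agent for 5 weeks to induce fibrosis, either TAA (the usual abbreviation of thioacetamide, a liver toxin) or CCl4 (carbon tetrachloride). They were observed for a further 2 weeks or 1 week, during which miR-29a or a negative control nucleotide (NC) was injected every 3 days. Total RNA was hybridised to single-colour Agilent arrays, 1 for each pairing of agent, week and oligonucleotide (8 in all), so that none had a replicate. All 8 livers came from mice that had received a toxin, and every NC mouse had been injected too, so differences are between treated livers and not from untreated liver. Whether RNA of several animals was pooled is not stated in the labels.

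PDGFs are dimeric growth factors that act on receptor tyrosine kinases. The receptor encoded by Pdgfra binds ligands built from the A, B and C chains, and that encoded by Pdgfrb binds mainly those built from the B and D chains. In fibrotic liver the receptors are known from hepatic stellate cells and other fibroblasts, for which PDGF-BB is a strong mitogen, while macrophages, platelets and endothelial cells are known sources of the B chain. The C and D chains are secreted in a latent form that proteases activate. miR-29a is a microRNA known for repressing collagen messenger RNAs, and Pdgfc has been reported as a miR-29 target in cultured hepatic stellate cells.

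The injected microRNA belongs to a family that shares its seed, the bases by which a microRNA recognises its targets. The mature forms are shown because the treatment under study is one of them, with the seed (bases 2 to 8) in capitals, 5′ to 3′, from RefSeq on GRCm38.p6. The gene of miR-29a lies on chromosome 6 (mature strand at 31062673 to 31062694, minus strand).
mmu-miR-29a-3p: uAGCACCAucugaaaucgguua
mmu-miR-29b-3p: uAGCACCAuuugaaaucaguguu
mmu-miR-29c-3p: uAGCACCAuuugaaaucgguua
All 3 carry the seed AGCACCA, which pairs with UGGUGCU in a target. The labels name miR-29a without an arm or a sequence, so the injected molecule itself is not printed. Sites in the transcripts of the members were not analysed here.

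Each member was represented by probes of 60 bases, placed here on mm9 as the files give them. Pdgfc had 1 probe at chr3:81017572-81017631. Pdgfa had 2 probes, at chr5:139452934-139452993 and chr5:139452925-139452984, which shared 51 bases and were well above background on all 8 arrays. Pdgfb had 2 probes, of which the one at chr15:79826376-79826435 was well above background on all 8 arrays and the one at chr15:79827438-79827497 on 0 of 8. Pdgfd had 1 probe at chr9:6376926-6376985, Pdgfra 1 at chr5:75593888-75593947 with 10 spots on the array, and Pdgfrb 1 at chr18:61244606-61244665. The brightest probe stood for each gene. Levels below are log2 processed signals minus the array's 75th percentile, so that 0 is the signal at the 75th percentile of that array, and levels of different probes are not compared with each other. A probe was kept where 4 or more of the 8 arrays read it well above background, which kept 5 of the 6 members and 18532 features in all. Pdgfd, well above background on 1 array, was not.

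All 8 arrays lay on 1 slide and were scanned in 1 scan, with every TAA array in 1 row of the slide and every CCl4 array in the other, so agent and slide row cannot be told apart. The tissue label fitted the hepatocyte markers, of which 7 of 7 were measured, with a summed level (relative to the 75th percentile) of 5237 to 6605 on the 8 arrays. Arrays stood apart in other marker lists. The TAA 1-week NC array had a summed level of 390 for 12 Kupffer cell and macrophage markers, against 55.1 to 99.8 on the other 7 arrays, and of 449 for 6 neutrophil markers, against 88.3 to 161. The CCl4 1-week NC array had a summed level of 14.9 for 5 mesothelial markers, against 1.38 to 4.71 elsewhere. In whole liver, fewer cells of a type and less RNA per cell cannot be told apart.

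**Figure D1:**
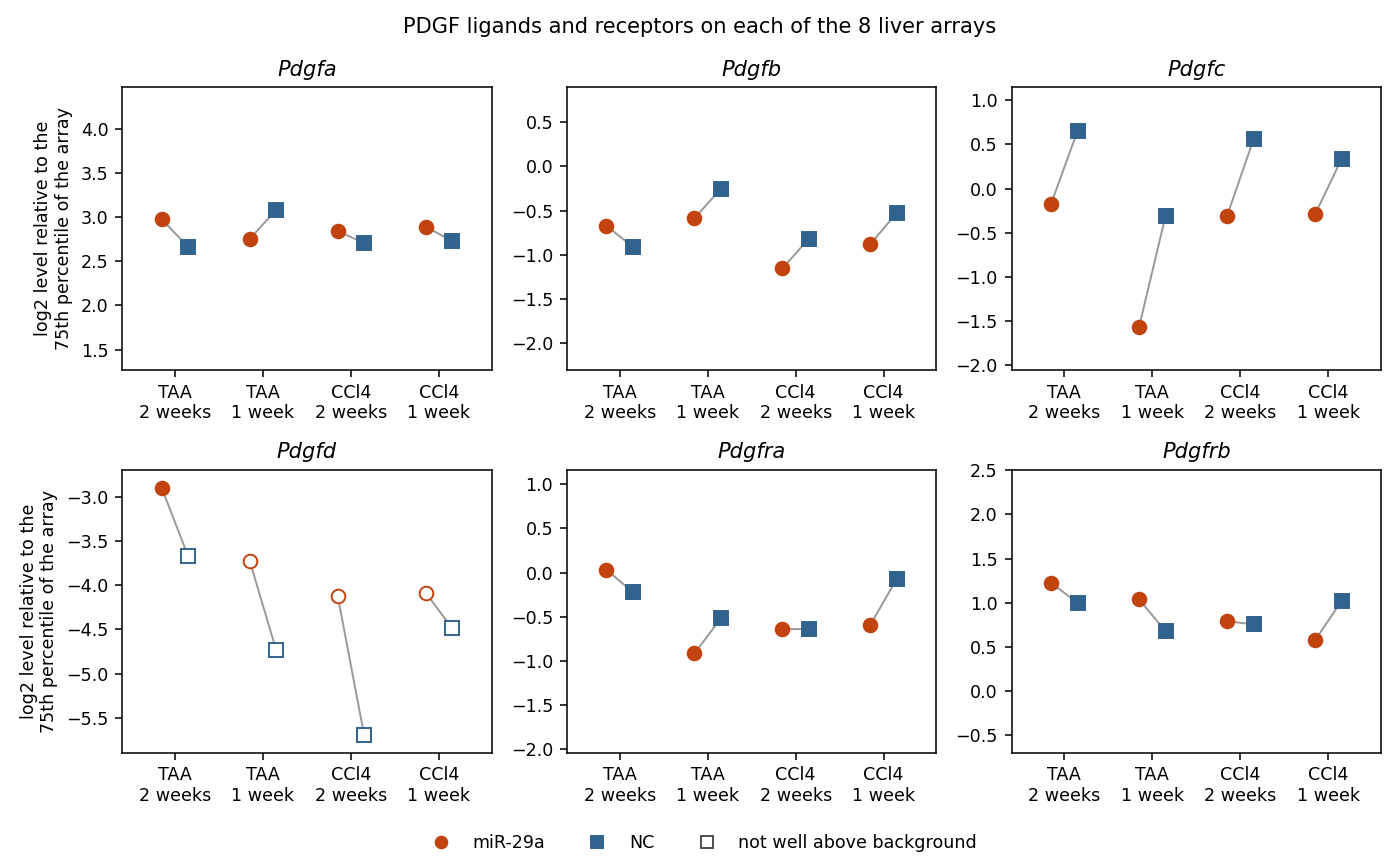
Log2 level of each member (relative to the array's 75th percentile) on the 8 arrays, with miR-29a arrays as circles and NC arrays as squares, a line joining each matched pair, and open symbols for signals not well above background. All panels span 3.2 log2 units; Pdgfc lies lower with miR-29a in all 4 pairs, and Pdgfd is well above background on the TAA 2-week miR-29a array alone.

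The question of the first comparison was how the members differed between miR-29a and NC livers of the same agent and week. Pdgfc, the gene of the C chain, was the member with the widest difference. With miR-29a, its log2 level was −0.17 (TAA, 2 weeks), −1.56 (TAA, 1 week), −0.31 (CCl4, 2 weeks) and −0.29 (CCl4, 1 week), against 0.66, −0.31, 0.56 and 0.33 with NC in the same order. Every miR-29a array lay below its matched NC array, although the level of the TAA 1-week NC array fell among those of the miR-29a arrays, so the groups as a whole overlapped. The 4 matched differences were −0.83, −1.25, −0.86 and −0.62, with a mean of −0.89 ± 0.25 on the log2 scale (SE of the additive limma fit, n = 4 pairs, 95% interval −1.50 to −0.28), or 0.539-fold. The unadjusted limma p was 0.0109, which ranked 102 among 18532 features, and after Benjamini-Hochberg adjustment over all of them it was 1. The difference therefore did not pass the threshold of 0.05, and neither did that of any other feature. With limma, 0 of 5 measured members were called (0% of all features), and 1 of 5 members had an unadjusted p under 0.05, as had 2.83% of all features (524 of them).

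How many other features showed a fall of this shape was counted across the array. Of the 18532 features, 5.69% were lower in all 4 pairs and 10.3% were higher in all 4, and among the members only Pdgfc was in either class. All 4 differences were at or below that of Pdgfc nearest to 0 in 9 features, Pdgfc included (0.0486%). That limit was set by Pdgfc itself, so the count only describes its place. The 8 others were chosen by these values alone: Xlr4a, Xlr4b, Arntl (a core clock transcription factor), Slc51b (a bile acid exporter subunit), Il1b (an inflammatory cytokine of macrophages), Asap2, Ndrg1 and a transcript that the files give by an Ensembl identifier. Their mean differences lay between −2.08 and −0.88, with Ndrg1 at −0.88 beside the −0.89 of Pdgfc. Of these others, Xlr4b, Asap2 and Ndrg1 were well above background on all 8 arrays. The rest were so on 6 or 7, so their sizes include signals that were not.

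The remaining ligands gave smaller differences. Pdgfa, which encodes the A chain, had levels of 2.98 (TAA, 2 weeks), 2.75 (TAA, 1 week), 2.84 (CCl4, 2 weeks) and 2.89 (CCl4, 1 week) with miR-29a, against 2.66, 3.08, 2.70 and 2.73 with NC. It was higher with miR-29a in 3 pairs and lower in the TAA 1-week pair, and its mean difference was 0.07 ± 0.14 (95% interval −0.27 to 0.41). Its second probe gave the same direction in each pair. Pdgfb, which encodes the B chain, had levels of −0.67 (TAA, 2 weeks), −0.59 (TAA, 1 week), −1.15 (CCl4, 2 weeks) and −0.88 (CCl4, 1 week) with miR-29a, against −0.91, −0.25, −0.82 and −0.52 with NC. It was lower by 0.33 to 0.35 log2 units in 3 pairs and higher by 0.24 in the TAA 2-week pair. The mean of −0.20 ± 0.15 had an interval of −0.54 to 0.15. The TAA 1-week NC array held the highest level of both Pdgfa and Pdgfb, and it is the array with the raised macrophage, neutrophil and platelet markers; in that pair the medians of these lists differed by −2.21, −5.66 and −1.44. Their part in the Pdgfa and Pdgfb values was not tested.

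Pdgfd was near the limit of detection. Its processed signal was 26.9 (TAA, 2 weeks), 10.3 (TAA, 1 week), 11.0 (CCl4, 2 weeks) and 11.1 (CCl4, 1 week) with miR-29a, against 17.2, 6.51, 3.70 and 9.49 with NC. Only the first of these signals was well above background. After scaling, the level of that array was at least 1.22-fold that of its NC partner, when the partner was set to the lowest signal well above background on its own array. Against the 4 CCl4 arrays the same bound was at least 1.43-fold to at least 1.75-fold, and against the TAA 1-week arrays it was at least 1.06-fold for NC, while for miR-29a it was under 1 and no fold is given. Each bound rests on 1 array.

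The receptors showed no constant direction. Pdgfra had levels of 0.03 (TAA, 2 weeks), −0.91 (TAA, 1 week), −0.64 (CCl4, 2 weeks) and −0.59 (CCl4, 1 week) with miR-29a, against −0.22, −0.52, −0.64 and −0.07 with NC. It was lower with miR-29a in both 1-week pairs, by 0.40 after TAA and 0.52 after CCl4, and at 2 weeks it was higher by 0.25 after TAA and differed by 0.005 after CCl4. The mean was −0.16 ± 0.24 (interval −0.75 to 0.42). Without the CCl4 1-week NC array it was 0.04 ± 0.23. Pdgfrb, the other receptor gene, had levels of 1.23 (TAA, 2 weeks), 1.04 (TAA, 1 week), 0.79 (CCl4, 2 weeks) and 0.58 (CCl4, 1 week) with miR-29a, against 1.00, 0.68, 0.75 and 1.02 with NC. It was higher with miR-29a in 3 pairs and lower by 0.44 in the CCl4 1-week pair, with a mean of 0.05 ± 0.17 (interval −0.36 to 0.45). The CCl4 1-week pair, in which both receptors were lower, was also the pair in which mesothelial markers differed by a median of −2.74. The intervals of these 4 members still allow differences of 0.4 to 0.8 log2 units in at least 1 direction.

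**Figure D2:**
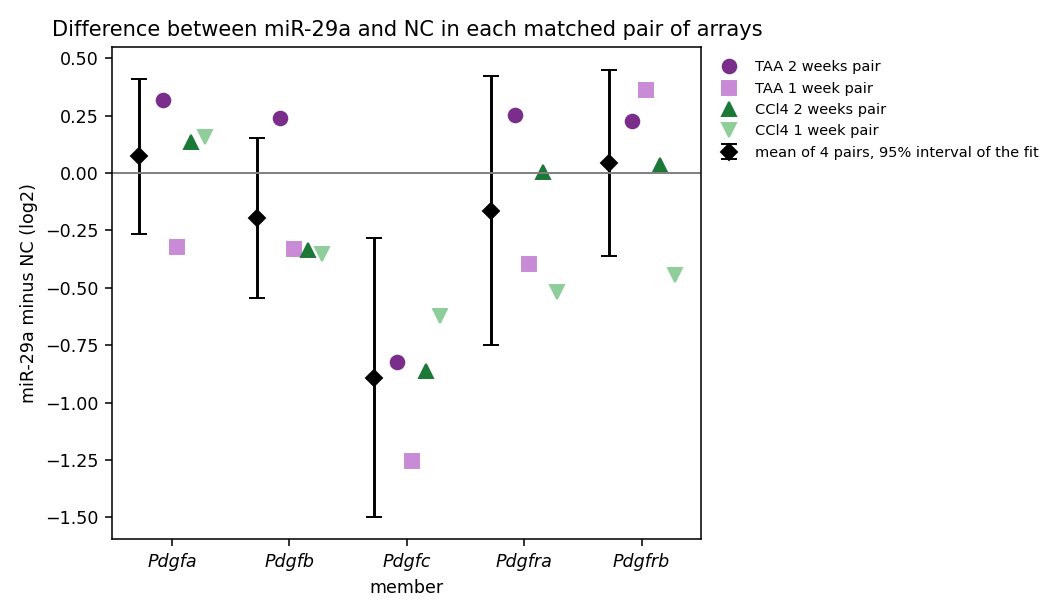
Difference of log2 level between miR-29a and NC for the 5 members kept, with 1 coloured point per matched pair of arrays and a black diamond for the mean with the 95% interval of the additive fit. The 4 points of Pdgfc lie between −1.25 and −0.62, and the points of each other member lie on both sides of 0.

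The Pdgfra probe was printed 10 times on each array, which gave a direct view of technical spread. In signals not scaled between arrays, the 10 spots read 181 to 219 on the CCl4 1-week NC array. On the TAA 2-week arrays they read 176 to 238 with miR-29a and 167 to 202 with NC. On the TAA 1-week arrays they read 63.0 to 89.0 with miR-29a and 109 to 139 with NC, and on the remaining 3 CCl4 arrays 107 to 139, with 9 spots used on the CCl4 1-week miR-29a array. The CCl4 1-week NC array and the TAA 2-week arrays also had the highest 75th percentiles. These were 212, 201 (miR-29a) and 219 (NC), against 136 to 192 elsewhere. The SD between spots of an array averaged 0.12 log2 units (highest 0.19), against an SD of 0.33 between the scaled levels of the 8 arrays. The spread of Pdgfra between arrays was thus larger than that between spots, but spots share 1 RNA sample and say nothing of the spread between animals.

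**Figure D3:**
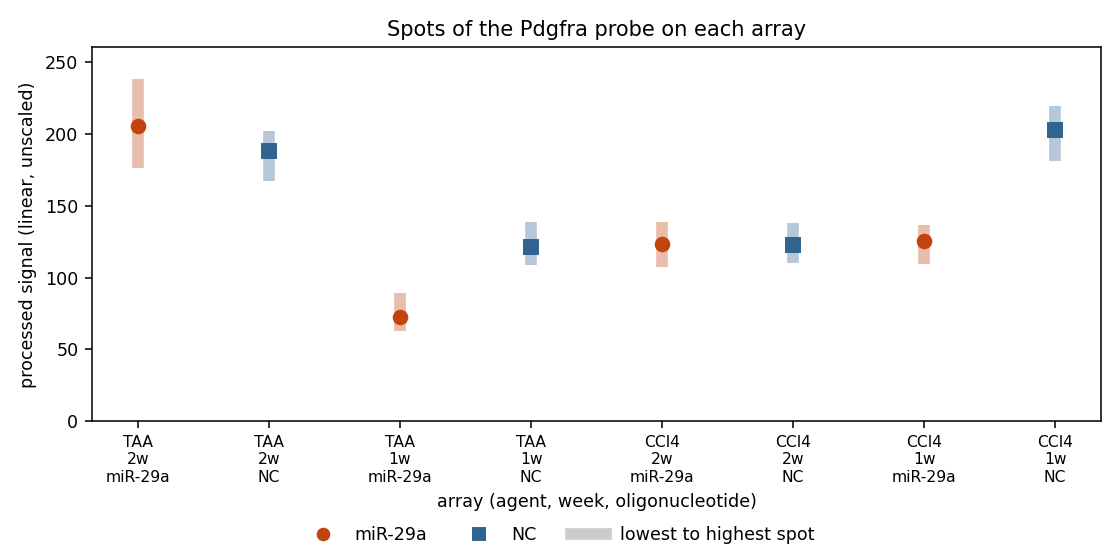
Processed signal of the Pdgfra probe, not scaled between arrays, on each of the 8 arrays, with a bar spanning the lowest to highest spot and a symbol at the mean (in log2) of its 9 or 10 spots. The 2 TAA 2-week arrays and the CCl4 1-week NC array read 167 to 238, above all spots of the other 5 arrays.

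A second comparison set TAA against CCl4 livers of the same week and oligonucleotide. Averaged over both weeks, limma called 0 of 5 members (0% of all features), and 0 of 5 had an unadjusted p under 0.05, against 28.7% of all features (5319 of them). The differences were −0.42 ± 0.25 for Pdgfc, 0.24 ± 0.15 for Pdgfb, 0.20 ± 0.17 for Pdgfrb, 0.08 ± 0.14 for Pdgfa and 0.08 ± 0.24 for Pdgfra. The signs of all but Pdgfc depended on the scaling: the median of all features was −0.13, and with each array's median as reference point in place of its 75th percentile it was −0.52. Relative to the median of all features, which both scalings leave alike, the values were −0.29 for Pdgfc, 0.37 for Pdgfb, 0.33 for Pdgfrb, 0.21 for Pdgfra and 0.20 for Pdgfa.

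For Pdgfc the values at each week were as follows, and the test of whether they depended on the week (the agent by week term) did not pass, with an adjusted p of 0.0603 by limma. At 1 week its level after TAA was −1.56 with miR-29a and −0.31 with NC, against −0.29 and 0.33 after CCl4, differences of −1.27 and −0.64. At 2 weeks its level after TAA was −0.17 with miR-29a and 0.66 with NC, against −0.31 and 0.56 after CCl4, differences of 0.14 and 0.10. In a limma fit with an agent by week term, Pdgfc was lower after TAA than after CCl4 at 1 week, with a difference of −0.96 ± 0.18 (0.515-fold, adjusted p = 0.0149, lower in 2 of 2 pairs), and at 2 weeks the difference was 0.12 ± 0.18 (below 0 with array-median scaling). It was the only member of 5 called at 1 week, a comparison in which 35.7% of all features were called, 23% as lower, so a single call among 5 is below the share of the whole array. Relative to the median of all features the 1-week difference was −0.80. When single arrays were left out, the fitted 1-week difference ranged over −1.20 to −0.72. It was nearest to 0 without the TAA 1-week miR-29a array. The call held without the TAA 1-week NC array (−1.20, adjusted p = 0.015) and without the CCl4 1-week NC array (−1.14, adjusted p = 0.0431), and was lost without the CCl4 1-week miR-29a array (−0.78, adjusted p = 0.098).

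Pdgfra, like Pdgfc, had its lowest mean level after TAA at 1 week. At 1 week it was lower after TAA, by 0.32 with miR-29a and 0.45 with NC, and at 2 weeks it was higher after TAA, by 0.67 with miR-29a and 0.42 with NC. The fit gave −0.39 ± 0.22 at 1 week (adjusted p = 0.222 by limma) and 0.54 ± 0.22 at 2 weeks (adjusted p = 0.441), neither of which passed. At 2 weeks limma called 0 of 5 members (0% of features), with 0 of 5 at an unadjusted p under 0.05, against 11.3% of features. With the array median as reference point the 1-week value was −0.98, with an adjusted p of 0.0069 by limma, though relative to the median of all features it was −0.23 under either scaling. Pdgfa, Pdgfb and Pdgfrb differed at 1 week by 0.11 ± 0.19, 0.28 ± 0.19 and 0.06 ± 0.22, and at 2 weeks by 0.04 ± 0.19, 0.19 ± 0.19 and 0.34 ± 0.22, of which the 3 values at 1 week and that of Pdgfa at 2 weeks turned below 0 with array-median scaling. Mesothelial markers were below 0 in 5 of 5 for TAA minus CCl4 at 1 week, with 2 called lower (23% of all features). Those 2, Upk3b and Gpm6a, were not well above background on either TAA array, so that their sizes are not given. Macrophage markers were above 0 in 11 of 12 (0 called, median 0.73), where 58.9% of all features were below 0. The pair medians of the macrophage list had opposite signs, at 1.72 with NC and −0.51 with miR-29a. Hepatic stellate cell markers were below 0 at 1 week in 9 of 12, with a median of −0.26, against −0.16 for all features. Limma called 2 of them lower (23% of all features) and 1 higher (12.6%). Their pair medians were −0.50 with NC and −0.08 with miR-29a. At 2 weeks 10 of 12 were above 0, where 60.7% of all features were below 0, with 0 called. The median was then 0.09, against −0.08 for all features. The part of these lists in the member values was not tested.

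The third comparison set 2 weeks against 1 week after the end of induction. Over both agents limma called 0 of 5 members (0% of features), and 1 of 5 had an unadjusted p under 0.05, against 5.18% of features (960). That member was Pdgfc, at 0.64 ± 0.25 (unadjusted p = 0.0414, adjusted p = 0.872 by limma). After TAA its level was higher at 2 weeks by 1.39 with miR-29a and 0.96 with NC, and after CCl4 the differences were −0.02 and 0.22. Pdgfb was the only member of 1 sign in all 4 pairs, lower at 2 weeks by 0.09 to 0.66 log2 units, as were 6.08% of all features. Its mean was −0.33 ± 0.15 (adjusted p = 0.872 by limma), with the largest fall in the TAA NC pair, which contains the TAA 1-week NC array. Without that array it was −0.28 ± 0.16. Pdgfra, Pdgfrb and Pdgfa averaged 0.16 ± 0.24, 0.11 ± 0.17 and −0.07 ± 0.14.

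Within each agent, the fit put Pdgfc after TAA at 1.18 ± 0.18 between 2 weeks and 1 week (2.26-fold, unadjusted p = 0.000999, adjusted p = 0.0632 by limma), and after CCl4 at 0.10 ± 0.18 (below 0 with array-median scaling). Pdgfra was at 0.62 ± 0.22 after TAA (adjusted p = 0.156) and −0.31 ± 0.22 after CCl4. Limma called 0 of 5 members after TAA (0% of features), where 2 of 5 had an unadjusted p under 0.05, against 27% of features. After CCl4 it called 0 of 5, against 1.08% of features. The agent by week term, which tests whether the week difference depended on the agent, was 1.07 ± 0.26 for Pdgfc (adjusted p = 0.0603 by limma) and 0.93 ± 0.31 for Pdgfra (adjusted p = 0.122). It was −0.06 ± 0.27 for Pdgfa and −0.09 ± 0.27 for Pdgfb, both above 0 with array-median scaling, and 0.28 ± 0.31 for Pdgfrb. Thus 0 of 5 members were called, against 9.82% of features, and 2 of 5 had an unadjusted p under 0.05, against 30.4%. Normexp background correction, array-median scaling, the stricter filter and a trended robust prior each brought Pdgfc past the threshold, as did leaving out the TAA 1-week NC array (1.31, adjusted p = 0.0338). Whether the miR-29a difference depended on agent or on week was tested in the same way, with 0 features called in either and 1.39% and 1.92% at an unadjusted p under 0.05. For Pdgfc these terms were −0.30 ± 0.54 and 0.09 ± 0.55.

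**Figure D4:**
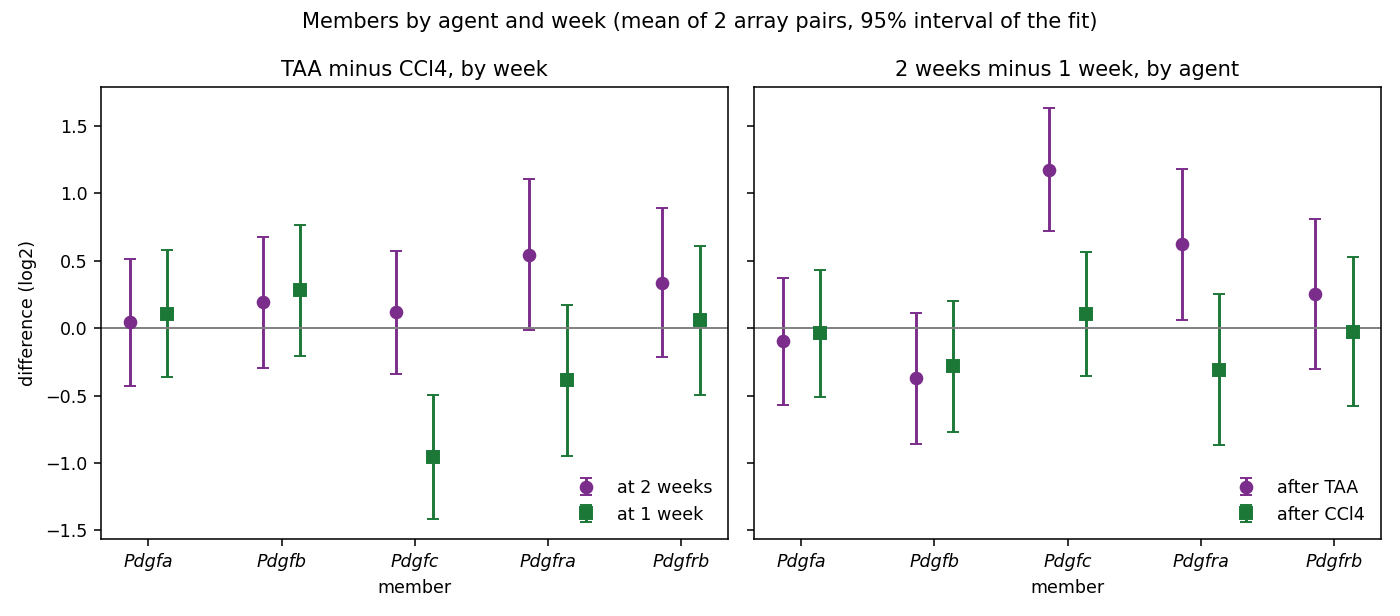
Left, log2 difference between TAA and CCl4 at 2 weeks and at 1 week; right, log2 difference between 2 weeks and 1 week after TAA and after CCl4, for the 5 members kept. Symbols are means of 2 array pairs with the 95% interval of the fit with an agent by week term; Pdgfc lies at −0.96 for TAA minus CCl4 at 1 week and at 1.18 for 2 weeks minus 1 week after TAA.

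Genes with a pattern like that of each member were named by the highest Pearson correlation of log2 level over the 8 arrays among 12824 protein-coding genes. With so many candidates and 8 arrays that share agent, week and oligonucleotide, high values arise readily, and they are given as a description. Pdgfra lay closest to Pdlim2 (r = 0.97), Dcn (0.96), which encodes the matrix proteoglycan decorin, and Adamtsl2 (0.95), a secreted matrix protein. Pdgfrb lay closest to Ncmap (0.95), Ddit4l (0.95) and Mtcl1 (0.93). Pdgfc lay closest to Leprotl1 (0.95), Gm13889 (0.95) and Relch (0.94). Pdgfa lay closest to Trim24 (0.98), a transcriptional co-regulator, Trpm8 (0.96) and Otx2 (0.95), and Pdgfb to Man1c1 (0.97), a mannosidase of the Golgi, Zfp61 (0.97) and Elapor1 (0.96). Between members the highest values were 0.59 for Pdgfra with Pdgfc and 0.54 for Pdgfra with Pdgfrb. Pdgfa with Pdgfb was at 0.44, and the other 7 pairs were between −0.31 and 0.13.

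Genes that process or bind the ligands were taken as a list of 12, of which 9 were measured (Plat and Plau, proteases known to activate the C and D chains, and A2m were not). With miR-29a 3 of 9 were above 0 and 6 below, with 0 called and a median of −0.04, against 0.03 for all features. Sparc, a matrix protein that binds PDGF, was at −0.22 ± 0.19. Between 2 weeks and 1 week 8 of 9 were below 0 (44% of all features), again with 0 called, and the median was −0.24, against 0.03 for all features. Between TAA and CCl4, 0 of 9 were called.

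Downstream of the receptors, 29 of 31 listed signalling genes were measured (Src and Nherf1 were not). With miR-29a 20 of 29 were below 0 and the median was −0.11, against 0.03 for all features, of which 42.9% were below 0. Limma called 0 of 29. The widest differences were those of Pik3r1, the regulatory subunit of PI3-kinase, at 0.60 ± 0.20, of Cbl, the ubiquitin ligase that turns over active receptors, at −0.55 ± 0.24, and of the adaptor Nck2 at −0.48 ± 0.22, each with an adjusted p of 1 by limma. Cbl was not well above background on the TAA 1-week miR-29a array.

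After TAA, as against CCl4, 23 of 29 signalling genes were below 0 over both weeks (61.5% of all features), with 0 called. The list's median was −0.28, against −0.13 for all features. Of the 29, 10 had an unadjusted limma p under 0.05, against 28.7% of all features. The widest differences were −0.76 ± 0.34 for Map2k1 (the kinase MEK1), −0.75 ± 0.18 for Cblb and −0.75 ± 0.18 for Stat5b. At 1 week limma called 14 of 29 as lower (23% of all features) and 1, Pik3r1, as higher (12.6% of all features), and the list's median was −0.45, against −0.16 for all features. Map2k1 was at −1.50 ± 0.23 (0.352-fold, adjusted p = 0.00862 by limma) and Nck1 at −1.25 ± 0.14 (0.421-fold, adjusted p = 0.00497), while Sos1, a Ras exchange factor, was at −1.10 ± 0.36 (adjusted p = 0.063), with the TAA NC array not well above background. Hras, a Ras gene, was called lower at −0.91 ± 0.12. The lower count was 9 with quantile normalization, 5 with no filter on dim probes, and 1 without the CCl4 1-week miR-29a array. It was 4 without the CCl4 1-week NC array, 5 without either CCl4 2-week array and 8 without either TAA 2-week array. The agent by week term was called for 2 of 29 (9.82% of all features), Nck1 at 1.19 ± 0.20 (adjusted p = 0.0329 by limma) and Hras at 1.07 ± 0.17 (adjusted p = 0.0319). With no filter on dim probes, or without any 1 of the CCl4 arrays or of the TAA 2-week arrays, limma called 0 features for this term, so both calls were lost there. Between 2 weeks and 1 week 16 of 29 were above 0 and 0 were called, with Stat3 at −0.41 ± 0.34. Stat3 had a level of 5.89 on the TAA 1-week NC array and 4.10 to 4.77 on the others. After CCl4 it was higher at 2 weeks with either oligonucleotide.

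As a comparison, 14 of 15 other growth factor receptors of liver (such as Egfr, Met and Kdr) were measured. With miR-29a 8 of 14 were below 0, with 0 called and a median of −0.07, and at 1 week 7 were above 0 and 7 below after TAA as against CCl4, of which limma called 2 as higher (12.6% of all features) and 0 as lower (23%).

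Markers of the cells that carry PDGF receptors were set beside the members. Hepatic stellate cell markers (12 of 13 measured) had a summed level of 61.6 on the TAA 1-week NC array and 71.7 to 94.7 on the other 7. With miR-29a 7 of the 12 were above 0 and 5 below, with a median of 0.02. Activated stellate cell and myofibroblast markers (10 of 12 measured) were below 0 between 2 weeks and 1 week in 10 of 10, against 44% of all features. Limma called 0 of 10, and 6 of 10 had an unadjusted p under 0.05, against 5.18% of all features. The median was −0.72, against 0.03 for all features. Pdgfrb, over the same comparison, was at 0.11 ± 0.17. With miR-29a 9 of these 10 were below 0, against 42.9% of all features, with a median of −0.25 and 0 called. The pair medians of these 10 were 0.23 (TAA, 2 weeks), −0.14 (TAA, 1 week), −0.02 (CCl4, 2 weeks) and −0.81 (CCl4, 1 week), so the direction was not constant. By week, 8 of 10 were below 0 at 1 week and 8 of 10 above 0 at 2 weeks. By agent, 9 of 10 were below 0 after CCl4 and 6 of 10 above 0 after TAA. Their summed level was 70.3 on the CCl4 1-week NC array, the highest of the 8, where mesothelial markers and, among CCl4 arrays, Pdgfra and Pdgfrb were highest too. Portal fibroblast markers (7 of 8 measured) and endothelial markers (9 of 10) had medians of −0.22 and −0.22 with miR-29a, platelet markers (5 of 9) −0.39, macrophage markers (12 of 12) −0.66, neutrophil markers (6 of 9) −1.46, mesothelial markers (5 of 7) −0.37, cholangiocyte markers (5 of 8) 0.01 and hepatocyte markers (7 of 7) 0.11, with 0 called in each list. For macrophage markers the pair medians were 0.10 (TAA, 2 weeks), −2.21 (TAA, 1 week), −0.65 (CCl4, 2 weeks) and 0.19 (CCl4, 1 week). In the same order, neutrophil markers gave −0.08, −5.66, −0.25 and −0.17, and platelet markers −0.23, −1.44, −0.10 and −0.21. Mesothelial markers gave 0.58, −0.44, 1.14 and −2.74. Upk3b and Gpm6a were not well above background on either TAA 1-week array, so the −0.44 includes such signals. The macrophage, neutrophil and platelet values thus came mostly from the TAA 1-week pair. The part of these marker lists in the member values was not tested.

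**Figure D5:**
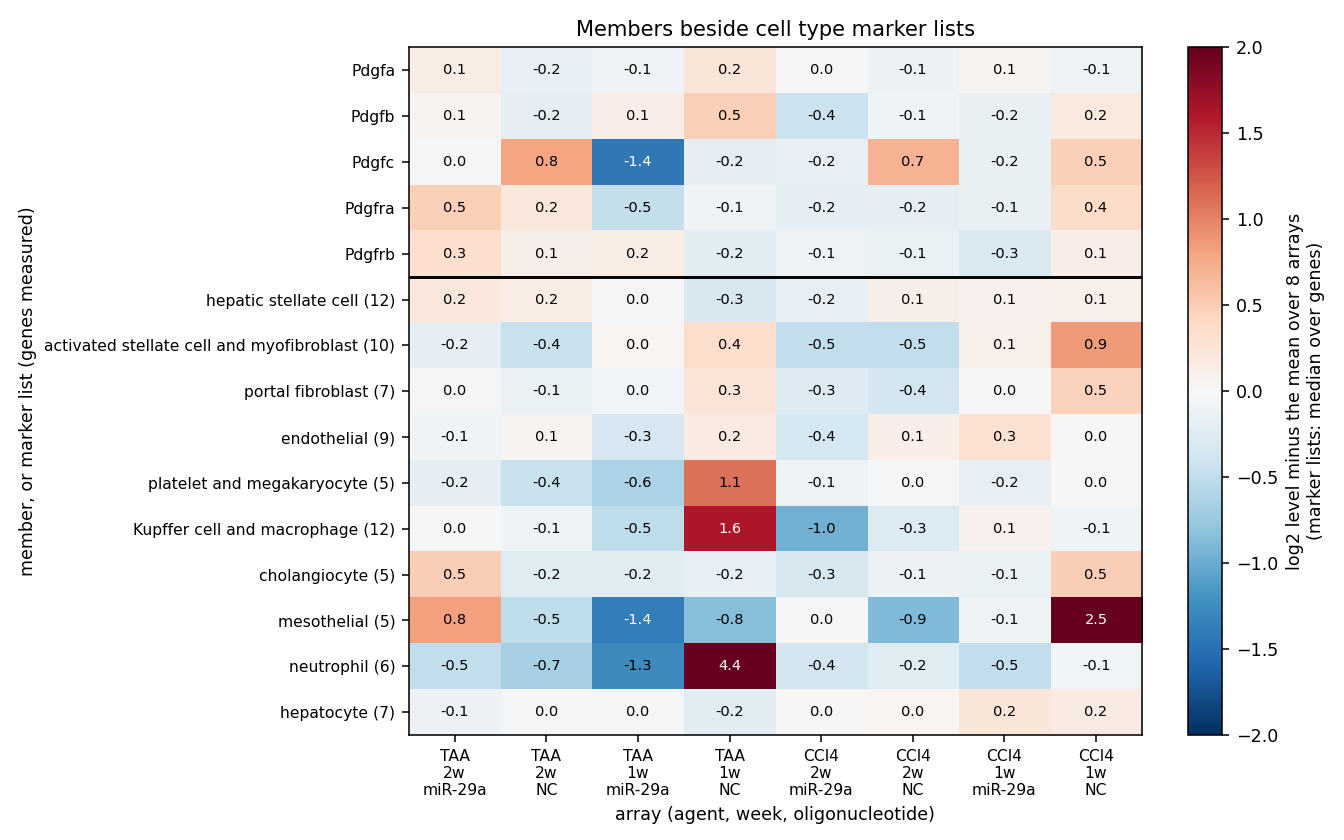
Log2 level minus its mean over the 8 arrays for the 5 members (above the line) and the median over measured genes of each marker list (below it), with values printed in the cells and colours ending at 2 log2 units in either direction. Pdgfc is at −1.4 on the TAA 1-week miR-29a array, and the TAA 1-week NC and CCl4 1-week NC arrays stand apart in the neutrophil and macrophage lists and in the mesothelial list.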

How the data were processed

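An array carried 62976 spots; leaving controls aside, 59305 spots and 55681 probes remained. Per the file headers, the authors read spot intensity (the processed signal, and the mean signal and local background) and subtracted its background in Agilent Feature Extraction (version 10.10.1.1). The authors also deposited a log2 matrix whose columns equalled the log2 processed signal minus 1 constant per array for 100% of probes (within 0.01), so no gene centring was applied; its column medians were −3.57 and −3.73 (TAA 2-week miR-29a and NC), −3.47 and −3.46 (TAA 1-week), −3.81 and −3.87 (CCl4 2-week) and −4.07 and −4.04 (CCl4 1-week). Between 43.9% and 48.4% of spots were well above background, 0 were saturated, and 24 probes were lost to outlier marks. The deposited flags are scores of 0 or 1 given by Feature Extraction, per the file headers. Arrays and groups were matched through the labels.

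Here log2 signals were averaged over spots and scaled to the array's 75th percentile. Probes were named by accession (27722), symbol (3348) or older symbol (313) through a RefSeq table (GRCm38.p6), and 24274 kept the files' name. Limma 3.58.1 in R 4.3.3 (package data.table, version 1.17.8) fitted agent, week and oligonucleotide over 8 arrays (4 residual degrees of freedom), and 1 further interaction term where named (3), with Benjamini-Hochberg adjustment at 0.05 over 18532 features. SEs are those of the fit. The fit was run on simulated data with independent noise, no interaction and changes wider than those of any member. That run checks the code and does not measure the power for these members. P-values measure the spread between these samples alone, and the number of arrays limits precision. Alternatives were normexp background correction (offset 50), quantile and array-median scaling, the authors' matrix, no or a stricter filter (all 8 arrays), the mean of a gene's probes, a trended robust prior, a block for matched arrays and leaving out arrays or pairs. The members, lists and rules for named genes were chosen with earlier results of these data known: the text names the members, the 3 genes most like each, and part of the 3 PDGF list genes with the widest difference in each comparison. Hras was named after its values were seen. Values of some list genes are not reported here.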

Additional observations from a re-analysis of the deposited data

Results flagged for a closer look

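In 30 groups of 4 arrays (each measured member within each agent, week and oligonucleotide), 3 held an array that lay far from the rest by Dixon's ratio, the gap to the nearest array over the range of the group. Chance marks about 1 group in 20 where the 4 arrays are alike and the groups are separate. Here each group mixed different treatments and the groups shared arrays, so that rate does not apply. Pdgfc on the TAA 1-week miR-29a array lay below the other 3 miR-29a arrays with a ratio of 0.902 (level −1.56, group range 1.39). Pdgfra on the CCl4 1-week NC array lay above the other 3 CCl4 arrays with a ratio of 0.91 (level −0.07, range 0.571). Pdgfa on the TAA 1-week NC array lay above the other 3 NC arrays with a ratio of 0.832 (level 3.08, range 0.419).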

How the results depend on the processing

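Across the counts of called features in the 3 main comparisons and the 3 interaction terms, the member differences of the main comparisons and the Pdgfc contrasts within agent and week, 200 values kept their direction and their side of the threshold under the alternatives other than leaving out arrays, 11 newly passed it or, for counts, grew by over 1.5 times, 1 count was 0 and 6 differences turned sign. For every change below the cause was not tested unless one is given.

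The miR-29a difference of Pdgfc kept its sign under each alternative run. It was −0.94 to −0.61 over settings (−0.61 with normexp) and −1.09 to −0.67 when arrays or pairs were left out, and it passed the adjusted threshold under none. Matched arrays share agent and week by their labels. With the matched pair as a block (replicate block), Pdgfc was at −0.89 with an unadjusted p of 0.000716 and an adjusted p of 0.785 by limma, and the block changed no call in any of the 3 main comparisons.

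Features called in TAA minus CCl4 (0 as reported) numbered 6 with normexp, 11 with quantile normalization, 5467 with array-median scaling, 6 with the stricter filter, 5 with the trended robust prior, and 0 to 5227 when arrays or pairs were left out. Without the CCl4 2-week pair or the TAA 2-week pair (4342 and 5227) only 1-week arrays inform that difference. For 2 weeks minus 1 week (0 as reported) leaving out arrays or pairs gave 0 to 505. The agent by week term (1819 as reported) called 3430 features with normexp, 3439 with array-median scaling, 0 with no filter, and 0 to 2383 when arrays were left out, with 0 without either CCl4 1-week array, either CCl4 2-week array or either TAA 2-week array. At 1 week, TAA minus CCl4 called 11794 features with array-median scaling, 3885 with no filter and 1765 to 7444 when arrays were left out, against 6613. The higher share of these calls was 9.49% with array-median scaling and 45.2% with no filter, against 35.4%. At 2 weeks it called 11 with no filter, against 0. Within TAA, 2 weeks minus 1 week called 2555 with normexp, 762 with array-median scaling, 817 with the stricter filter, 1292 with the trended prior, 6 with no filter and 0 to 847 when arrays were left out, against 0. Within CCl4 it called 308 with array-median scaling, 391 with the trended prior, 0 with quantile normalization, 1 with no filter and 0 to 505 when arrays were left out, against 200.

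Array-median scaling moved the median of all features to −0.52 in TAA minus CCl4 and to −0.75 at 1 week, and with it turned Pdgfa (−0.32), Pdgfb (−0.15), Pdgfra (−0.31) and Pdgfrb (−0.19) in TAA minus CCl4, and Pdgfa (−0.49), Pdgfb (−0.31) and Pdgfrb (−0.54) at 1 week. It likewise turned Pdgfa (−0.14) and Pdgfc (−0.070) at 2 weeks, Pdgfc between weeks after CCl4 (−0.11), the agent by week terms of Pdgfa (0.35) and Pdgfb (0.32), and the oligonucleotide by week term of Pdgfc (−0.044). Normexp turned Pdgfa at 1 week (−0.026) and its agent by week term (0.092), and the oligonucleotide by week term of Pdgfc (−0.094). Pdgfc between weeks after TAA passed the threshold by limma with normexp (0.66, adjusted p = 0.0213), array-median scaling (1.37, adjusted p = 0.0432), the stricter filter (1.18, adjusted p = 0.0415) and the trended prior (1.18, adjusted p = 0.0316). Its agent by week term passed with the same alternatives at 0.57, 1.48, 1.07 and 1.07, and missed with no filter (adjusted p = 0.162) and quantile normalization (adjusted p = 0.0787). Pdgfra passed with array-median scaling alone (1.34 for that term).

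Leaving out arrays or pairs gave, for miR-29a minus NC, −0.0091 to 0.20 for Pdgfa, −0.39 to 0.041 for Pdgfra and −0.069 to 0.21 for Pdgfrb. For TAA minus CCl4 it gave −0.031 to 0.17 for Pdgfa, −0.96 to 0.12 for Pdgfc (called at −0.96, without either 2-week pair) and −0.39 to 0.54 for Pdgfra. For 2 weeks minus 1 week it gave −0.16 to 0.040 for Pdgfa, −0.31 to 0.62 for Pdgfra and −0.025 to 0.27 for Pdgfrb. The agent by week term ranged over −0.33 to 0.20 for Pdgfa, −0.38 to 0.20 for Pdgfb and −0.047 to 0.61 for Pdgfrb, and for Pdgfc the oligonucleotide terms ranged over −0.80 to 0.20 by agent and −0.47 to 0.66 by week. TAA minus CCl4 at 1 week ranged over −0.16 to 0.37 for Pdgfa, −1.20 to −0.72 for Pdgfc and −0.27 to 0.39 for Pdgfrb, and at 2 weeks over −0.12 to 0.21 for Pdgfa and −0.096 to 0.48 for Pdgfb. Pdgfc between weeks after CCl4 ranged over −0.075 to 0.28. The 1-week call of Pdgfc held under the 8 alternatives of processing, with adjusted p of 0.00167 to 0.0493 by limma, and was lost only without the CCl4 1-week miR-29a array.

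A slide or scan block was not run, since all arrays shared 1 slide and 1 scan. The counts of signalling genes under alternatives were added after seeing the data, and among them the single higher call ranged over 0 to 4. Signal over background limits what can be said of Pdgfd. With 1 array a combination, the spread comes from the departures of the 8 arrays from the fitted sums, so that a difference between animals and an effect left out of the model cannot be told apart.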
